A study of Mus musculus with 2 samples.

Results

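The amino acid transporter genes of MC3T3-E1 cells, an osteoblast-like line established from mouse calvaria, were read in 1 library of untreated cells and 1 library of cells given 10 nM parathyroid hormone (PTH), both labelled 1 h. The genes were chosen by symbol, as rows of the solute carrier families Slc1, Slc3, Slc6, Slc7, Slc36, Slc38 and Slc43. They had at least 1 count over both libraries, and the rule was set with earlier results of these data known. This rule found 36 of the 23527 rows with counts, out of 61 rows that match the symbol pattern, and all 36 are annotated as protein-coding. Of these, 30 reached 20 counts over both libraries and were compared, and 6 did not. The lowest totals inside the rule were 4 counts, for Slc6a4 and Slc6a19, and 25 matching rows stood outside it at 0. In both groups the cells were kept in medium with 10% serum and had been plated 24 h before treatment began. The sources used here do not name the fragment of PTH or the number of wells behind each library.

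Most amino acids enter cells against a gradient, on carriers that couple their movement to sodium or protons or exchange them for an amino acid already inside. Slc38a2, a sodium-coupled carrier of small neutral amino acids, belongs to the activity known as system A, and Slc7a5 exchanges internal glutamine for large neutral amino acids as a light chain bound to the heavy chain Slc3a2. Osteoblasts secrete large amounts of collagen, which is rich in glycine and proline, and PTH reaches them through the receptor Pth1r, which raises cyclic AMP. The symbol rule also takes in carriers of related solutes, such as Slc6a6 for taurine, Slc6a8 for creatine and Slc43a3 for purine nucleobases.

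The libraries held 66302211 (untreated) and 70036872 (PTH) counts. All 8 osteoblast markers examined had counts, with Col1a1 at 28830 CPM (counts scaled to library size) untreated and 30282 after PTH, and the osteoblast factor Sp7 at 68.3 and 28.6. Markers that define other lineages, Ptprc and Adgre1 of macrophages, Cdh5 and Kdr of endothelium, Adipoq and Plin1 of fat and Myod1 of muscle, were listed at 0 in both. Other markers of the same lists had few counts, with Csf1r at 122 and 155, Cd68 at 67 and 57, Pecam1 at 9 and 9, Fabp4 at 34 and 45 and Acta1 at 124 and 28. The endothelial, adipocyte and muscle lists summed to at most 1.95 CPM in either library, and the macrophage and osteoclast list, at 87.1 and 96.5 CPM, was nearly all Ctsk (84.3 and 93.3). In RNA from whole cultures, fewer cells with a transcript and less of it per cell cannot be told apart. With 1 library per group there was no replicate check and no p-value. Each ratio is PTH over untreated after scaling, and the interval in brackets is a 95% exact interval that reflects the number of reads and nothing else. It takes the listed counts as plain tallies of reads, which could not be checked because the counting tool is not stated.

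By the size rule used throughout, which asks that the whole interval lie beyond 1.5-fold, Slc38a2 and Slc1a3 had more reads in the PTH library and Slc43a1 had fewer. The other 27 of the 30 genes compared were not past the rule. The 2 genes with more reads were 6.67% of the 30, beside 5.39% of all 16408 rows compared, and the 1 gene with fewer reads was 3.33%, beside 3.54%. The shares of genes past the rule therefore lay near those of all rows compared. Among rows with 1000 or more counts the shares were 3.25% and 1.57%. At that depth 2 and 1 of the 19 amino acid transporter genes were past the rule, the same 3 genes. As shares these were above those of all rows at that depth, but they rest on only 3 genes. Among the 192 other solute carrier rows compared, 7.29% had more reads and 2.08% fewer. The median log2 ratio was -0.01 over the 30 genes, 0.02 over the other solute carriers and 0.00 over all rows. These 3 calls held only with counting error as the sole error. With the interval widened for an assumed coefficient of variation of 0.1 between cultures, 0 of the 30 genes were past the rule, while 680 rows (4.14%) with more reads and 404 (2.46%) with fewer were past it in the whole table.

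**Figure D1:**
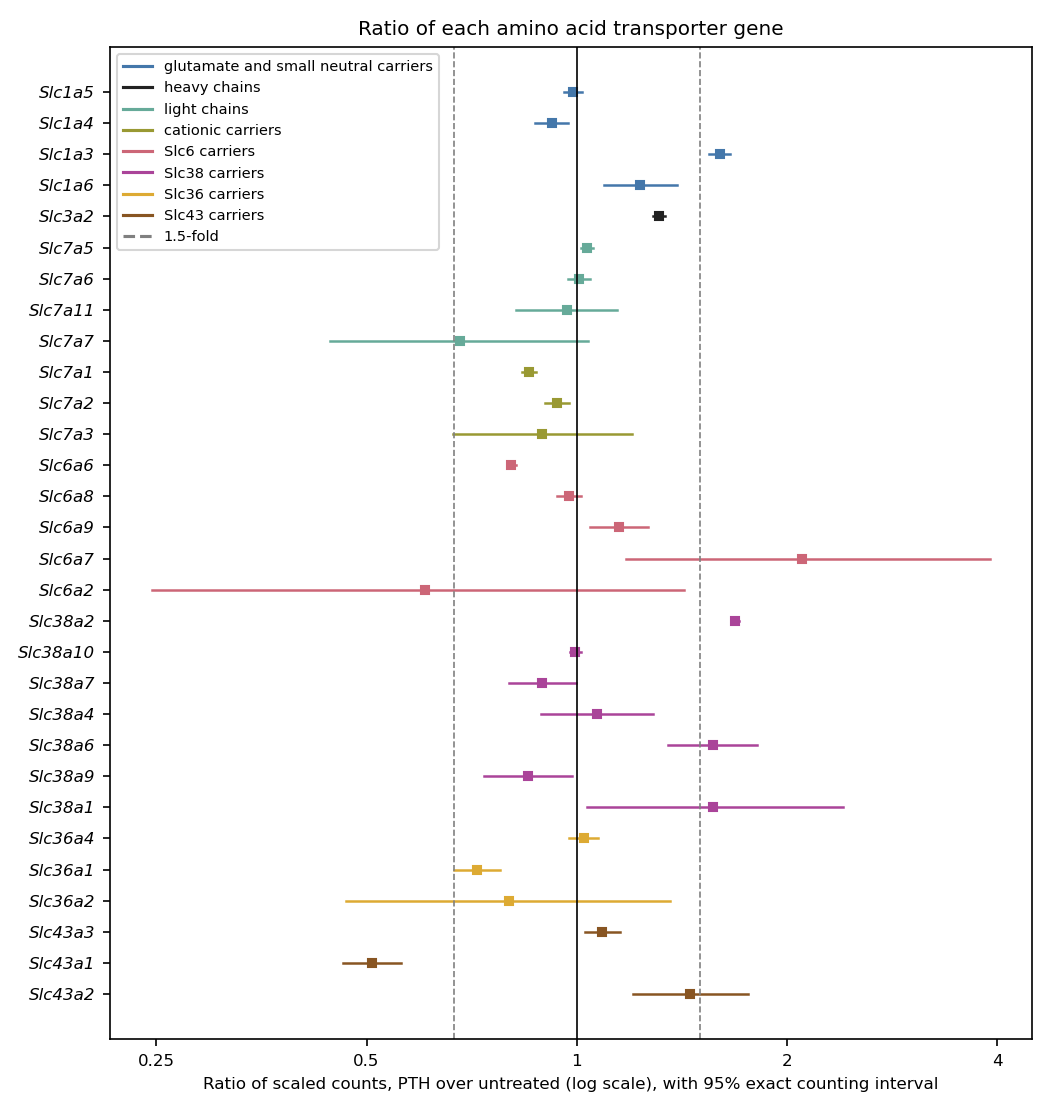
Ratio of scaled counts, PTH over untreated, on a log axis for each of the 30 genes compared, with the 95% exact counting interval as a bar and colour for the role of the gene. Dashed lines mark 1.5-fold in either direction, and the intervals of Slc38a2 (1.66 to 1.71), Slc1a3 (1.55 to 1.66) and Slc43a1 (0.463 to 0.560) are the ones that lie wholly beyond them.

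The sequences before the RefSeq starts of 4 genes are shown: those of the 3 genes past the rule, and that of Slc38a6, because among the 24 of the 36 genes with a RefSeq promoter entry it is the one with a complete cyclic AMP response element. Each sequence is the 250 bases before the RefSeq transcription start (GRCm38.p6), read 5′ to 3′ on the strand of the gene. Capitals mark the element TGACGTCA and its core TGACG, searched on both strands, so that CGTCA is the core read from the other strand, and the complete element holds overlapping cores.
Slc38a2 (chr15:96699729-96699978, minus strand): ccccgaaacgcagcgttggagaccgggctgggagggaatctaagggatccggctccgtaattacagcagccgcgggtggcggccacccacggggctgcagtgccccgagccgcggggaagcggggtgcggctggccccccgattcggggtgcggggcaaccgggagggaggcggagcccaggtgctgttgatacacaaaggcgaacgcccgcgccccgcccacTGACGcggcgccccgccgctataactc
Slc1a3 (chr15:8710808-8711057, minus strand): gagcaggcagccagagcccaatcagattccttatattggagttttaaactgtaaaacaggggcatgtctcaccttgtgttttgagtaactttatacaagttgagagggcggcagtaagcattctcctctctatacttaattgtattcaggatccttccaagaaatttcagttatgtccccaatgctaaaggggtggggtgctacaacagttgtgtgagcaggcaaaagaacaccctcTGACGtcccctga
Slc43a1 (chr2:84840073-84840322, plus strand): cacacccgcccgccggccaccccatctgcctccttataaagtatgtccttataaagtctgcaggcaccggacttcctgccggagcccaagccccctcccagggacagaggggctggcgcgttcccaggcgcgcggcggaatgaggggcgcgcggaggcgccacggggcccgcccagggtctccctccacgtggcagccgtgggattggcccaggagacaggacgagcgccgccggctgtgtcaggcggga
Slc38a6 (chr12:73286598-73286847, plus strand): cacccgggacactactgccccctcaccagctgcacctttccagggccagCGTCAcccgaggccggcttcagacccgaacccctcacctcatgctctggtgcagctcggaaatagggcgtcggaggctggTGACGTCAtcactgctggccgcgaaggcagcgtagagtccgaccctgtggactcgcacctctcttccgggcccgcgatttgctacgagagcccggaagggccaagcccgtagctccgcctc

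Counted from the start, the core lay at -27 to -23 in Slc38a2 and at -13 to -9 in Slc1a3. The window of Slc43a1 holds none of the letters searched. It lies inside the gene as GENCODE places it, whose first base is 84838850, so the sequence before that start was not searched. Starts also differ for Slc1a3, whose window begins at 8710808, beyond the GENCODE gene end at 8710764. The Slc38a6 window ends at 73286847, inside the GENCODE gene, which begins at 73286779. Positions counted from the GENCODE starts would differ for both. In Slc38a6 the complete element lay at -121 to -114, and a further core at -201 to -197. Of all 32851 promoter windows of the same length, 1.55% hold the complete element and 17.8% the core. Of the 35 windows of the 24 genes, 1 and 10 do. The core is also in windows of Slc36a1, Slc7a1 and Slc1a4, at ratios of 0.720, 0.853 and 0.920. It is in those of Slc7a6, Slc38a4 and Slc6a9 too, at 1.01, 1.07 and 1.15, and of Slc6a4, with 0 and 4 counts. Whether the core goes with the ratio was not tested. The composite site of C/EBP and ATF factors, searched as TGATGNAA, is in 3 of the 35 windows, which belong to Slc7a7 and Slc7a11, and in 3.45% of all windows. These are matches of letters, and binding was not measured.

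Among the sodium-coupled neutral carriers of the Slc38 family, 7 of 11 rows had counts and all 7 were compared. Slc38a2 (ENSMUSG00000022462, chromosome 15, 96687392 to 96699730, minus strand, mm10) had 39952 counts untreated and 69340 after PTH. After scaling this was 595 and 1003 CPM, a ratio of 1.69 (1.66 to 1.71). The PTH library was the higher, and only 2.78% of the 9549 rows with 1000 or more counts had a ratio at least as high. The next most read member, Slc38a10, a less studied family member, had 19841 and 20345 counts, a ratio of 0.996 (0.976 to 1.02).

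The other 2 system A genes had few reads. Slc38a1 had 39 and 63 counts, a ratio of 1.57 with a wide interval (1.04 to 2.40), and Slc38a4 had 229 and 252, a ratio of 1.07 (0.890 to 1.28). Slc38a6 had 299 and 482 counts, a ratio of 1.57 (1.35 to 1.81), so its interval lay above 1 and reached below 1.5. Neither lysosomal member was past the rule. Slc38a7, a glutamine carrier, had 668 and 614 counts, a ratio of 0.893 (0.799 to 0.997), and Slc38a9, which signals lysosomal arginine to the growth kinase mTORC1, had 404 and 354, a ratio of 0.851 (0.736 to 0.984). Slc38a3, Slc38a5, Slc38a8 and Slc38a11 were listed at 0 in both libraries. Slc38a1, Slc38a2 and Slc38a4 lie in this order of position on the minus strand of chromosome 15, with 44.5 kb and 295.1 kb between them. The outer genes had under 1% of the reads of Slc38a2.

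In the Slc1 family, 6 of 7 rows had counts and 4 were compared. Slc1a3 (ENSMUSG00000005360, chromosome 15, 8634124 to 8710764, minus strand) encodes GLAST, a sodium-coupled glutamate and aspartate carrier, and had 5141 counts untreated and 8479 after PTH. Its ratio was 1.60 (1.55 to 1.66), which 3.19% of the rows with 1000 or more counts reached or passed. The neutral carriers of the same family were close to even. Slc1a5 (ASCT2), an exchanger known for glutamine uptake, had 8522 and 8669 counts, a ratio of 0.988 (0.959 to 1.02). Slc1a4 (ASCT1), which carries alanine, serine and cysteine, had 2752 and 2608 counts, a ratio of 0.920 (0.872 to 0.971).

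Slc1a6 (EAAT4), a glutamate carrier best known from cerebellar Purkinje cells, had 499 and 634 counts, a ratio of 1.23 (1.10 to 1.39). Among the neuronal markers examined, Rbfox3 and Snap25 were listed at 0 in both libraries, Syp at 0 and 12 counts, and Tubb3, which is not restricted to neurons, had 523 and 836. Slc1a2, the main glutamate carrier of astrocytes, had 8 and 9 counts, and Slc1a7 was listed at 0 and 7. Slc1a1 was at 0 in both.

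The 2 heavy chains differed in level by orders of magnitude. Slc3a2 (chromosome 19, 8706882 to 8723369, minus strand), the heavy chain CD98, had 16792 counts untreated and 22707 after PTH, a ratio of 1.31 (1.29 to 1.34). It was higher in the PTH library and short of the 1.5-fold rule. Slc3a1, the heavy chain of the kidney and gut cystine carrier, was listed at 0 untreated and at 13 counts after PTH, and it shares 26.5% of its exonic length with Prepl on the opposite strand. Such zeros are common here: over all genes, 598 rows pair a 0 with 10 to 29 counts in the opposite library. For that reason a listed 0 is not read as a bound and no fold is given.

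Of the light chains, most of which pair with Slc3a2, 4 had enough counts to compare and 0 were past the rule. Slc7a5 (LAT1; chromosome 8, 121881150 to 121907694, minus strand) had 19171 and 20443 counts, a ratio of 1.04 (1.02 to 1.06). Slc7a6, which exchanges cationic for neutral amino acids, had 5977 and 6199 counts, a ratio of 1.01 (0.972 to 1.04) that falls below 1 with 2 of 3 other scalings. Slc7a11, the cystine and glutamate exchanger xCT, had 291 and 290 counts, a ratio of 0.968 (0.820 to 1.14). Slc7a7 had 57 and 40 counts, a ratio of 0.681 (0.443 to 1.04). The counting intervals of all 4 lay below that of Slc3a2. With an assumed coefficient of variation of 0.1 between cultures, the interval of Slc3a2 (0.995 to 1.73) overlapped those of all 4. These were 0.784 to 1.37 for Slc7a5, 0.762 to 1.33 for Slc7a6, 0.702 to 1.33 for Slc7a11 and 0.420 to 1.11 for Slc7a7. Of the 10 light chain rows, 6 were at 0 in both libraries, among them Slc7a8 (LAT2) and Slc7a9, the partner of Slc3a1.

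Of the cationic carriers, which bring in arginine and lysine, 3 had enough counts to compare and 0 were past the rule. Slc7a1 (CAT-1) had 16241 and 14272 counts, a ratio of 0.853 (0.834 to 0.873), and Slc7a2 (CAT-2) had 5371 and 5180, a ratio of 0.937 (0.901 to 0.973). Slc7a3 had 99 and 91 counts, with an interval on both sides of 1, and Slc7a4 and Slc7a14 were at 0.

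Of the 36 genes, the one with most reads in the untreated library belongs to the Slc6 family. Slc6a6, the taurine carrier (chromosome 6, 91684053 to 91759066, plus strand), had 43466 counts untreated and 36085 after PTH, a ratio of 0.806 (0.795 to 0.818). The PTH library was 1.24-fold lower and the gene was not past the rule. Slc6a8, the creatine carrier, had 5078 and 5093 counts, a ratio of 0.974 (0.937 to 1.01). Slc6a9 (GlyT1), which carries glycine, had 790 and 935 counts, a ratio of 1.15 (1.04 to 1.27), and shares 30.3% of its exonic length with genes of the opposite strand. The sources used here do not say whether strand was used in counting.

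The proline carrier Slc6a7 had the largest ratio of the 30, 2.10, from only 18 and 39 counts, and its interval (1.18 to 3.91) spans the rule. Slc6a2, the noradrenaline carrier, had 16 and 10 counts. The serotonin carrier Slc6a4 was listed at 0 and 4, Slc6a15, a neutral amino acid carrier, at 0 and 7, and Slc6a19, the neutral carrier of kidney and gut, at 4 and 0. The remaining 11 of 19 rows of the family were at 0 in both libraries. Slc6a20a (0 and 3 counts) and Slc6a20b (0 and 10) fall outside the rule because of the letter that ends their symbols.

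Among the Slc36 carriers, Slc36a1, which exports amino acids from lysosomes, had 1611 and 1195 counts, a ratio of 0.720 (0.668 to 0.777). Its interval lay below 1 and reached just inside the 1.5-fold limit. Slc36a4 had 3465 and 3649 counts, a ratio of 1.02 (0.976 to 1.07) that is 0.997 with total-count scaling. Slc36a2 had 34 and 28 counts, and Slc36a3 was at 0. Slc36a1 and Slc36a2 lie on opposite strands of chromosome 11, with 19.3 kb between them.

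In the Slc43 family of sodium-independent carriers, 1 of 3 members was past the rule, with fewer reads. Of all rows compared, 3.54% had fewer reads by the rule. Slc43a1 (LAT3; ENSMUSG00000027075, chromosome 2, 84838850 to 84863594, plus strand), a carrier of large neutral amino acids, had 1253 counts untreated and 657 after PTH. Its reads were 1.96-fold lower after PTH (1.79 to 2.16), and 0.733% of the rows with 1000 or more counts had a ratio as low. Slc43a2 (LAT4), of the same function, had 187 and 280 counts, a ratio of 1.45, with an interval that reached 1.76 and began above 1. Slc43a3 had 2187 and 2449 counts, a ratio of 1.09 (1.03 to 1.15). Slc43a3 starts 73 kb beyond Slc43a1 on the same strand, and the intervals of Slc43a1 and Slc43a3 were far apart.

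Levels of different genes were compared as RPKM, which are CPM divided by the length of the merged exons in kilobases. In the untreated library Slc7a5 stood at 77.0, Slc6a6 at 76.6, Slc3a2 at 70.9 and Slc38a2 at 67.3, followed by Slc38a10 at 46.0 and Slc1a5 at 30.4. In the PTH library Slc38a2 was first at 113, then Slc3a2 at 93.1, Slc7a5 at 79.8 and Slc6a6 at 61.7. The order at the top of the untreated library depends on the length used. Per kilobase of the longest principal transcript, a choice made after the data were seen, Slc3a2 was first at 138, ahead of Slc38a2 at 128, Slc6a6 at 105 and Slc7a5 at 81.2, and in the PTH library Slc38a2 was first at 215 by this measure too. How transcripts are shared among isoforms is unknown, so neighbours in this order are not told apart.

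**Figure D2:**
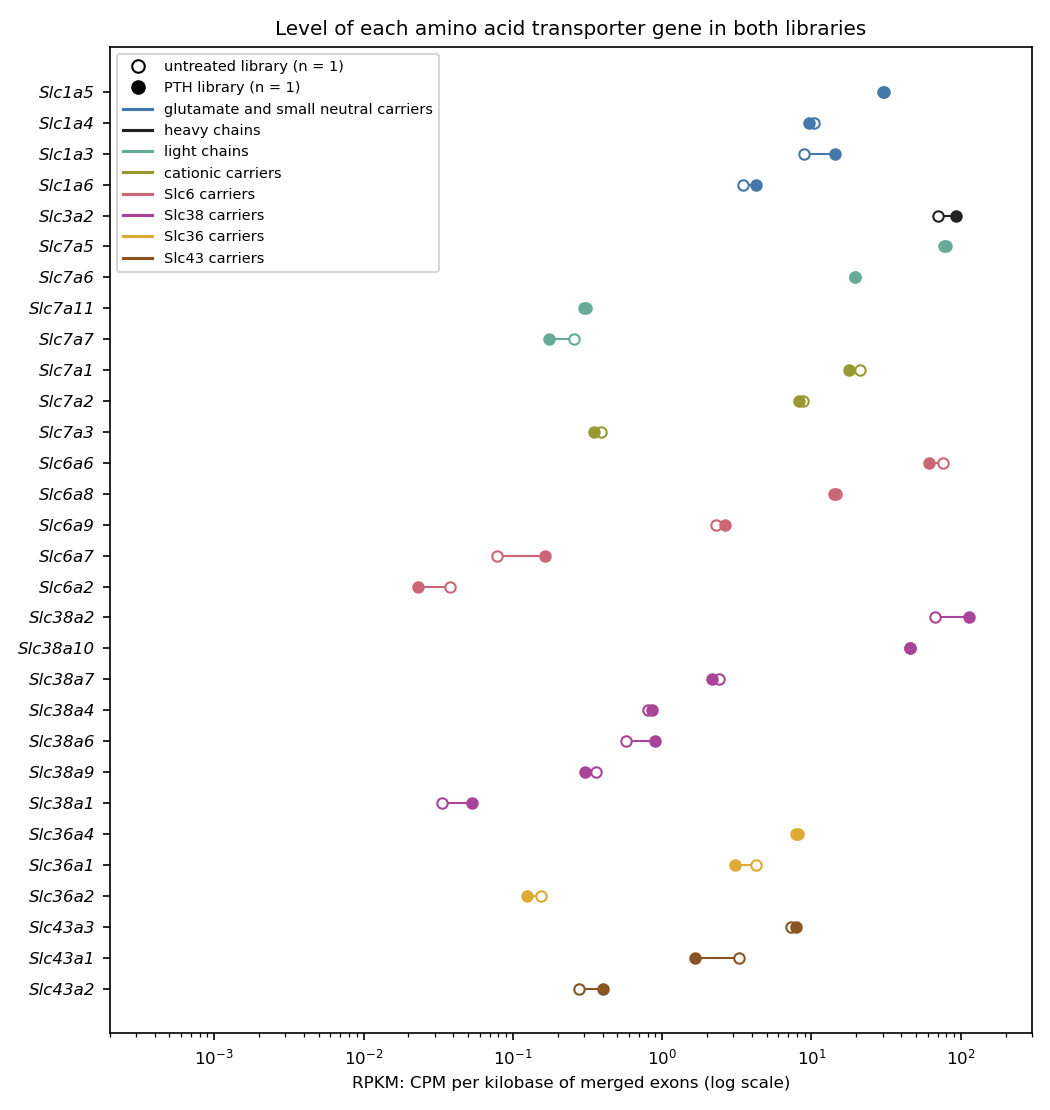
Level of each of the 30 genes compared, in RPKM (CPM per kilobase of merged exons) on a log axis, with open circles for the untreated and filled circles for the PTH library, 1 library each. Levels span from 0.0230 for Slc6a2 to 113 for Slc38a2, both in the PTH library, and the filled circle lies to the right of the open one for Slc38a2 and Slc1a3 and to the left for Slc43a1.

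The ratio of Slc3a2 to Slc7a5, in reads per kilobase of merged exons, was 0.920 untreated and 1.17 after PTH. With the principal transcripts it was 1.69 and 2.15, so the heavy chain was ahead of its light chain in both libraries by one length and in the PTH library alone by the other. The low end of the order held Slc7a11 at 0.311 and 0.301 and Slc38a1 at 0.0337 and 0.0529 per kilobase of merged exons. Slc38a2 thus had over 1000 times the reads per kilobase of Slc38a1, a fellow system A gene 44.5 kb away, in each library.

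A few genes held most of the reads. The 7 most read in the untreated library (Slc6a6, Slc38a2, Slc38a10, Slc7a5, Slc3a2, Slc7a1 and Slc1a5) had 81.8% of the reads of all 36 genes there and 82.9% after PTH. The share of Slc38a2 was 19.9% (19.8 to 20.1) untreated and 29.9% (29.8 to 30.1) after PTH, and that of Slc6a6 was 21.7% (21.5 to 21.9) and 15.6% (15.4 to 15.7), with 95% Wilson intervals. All 36 genes together had 2986 CPM untreated and 3349 after PTH, a ratio of 1.12 (1.11 to 1.13). Without Slc38a2 the sum was 2391 and 2346 CPM, a ratio of 0.981 (0.974 to 0.988). The higher sum after PTH was therefore no larger than the difference of Slc38a2 itself.

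**Figure D3:**
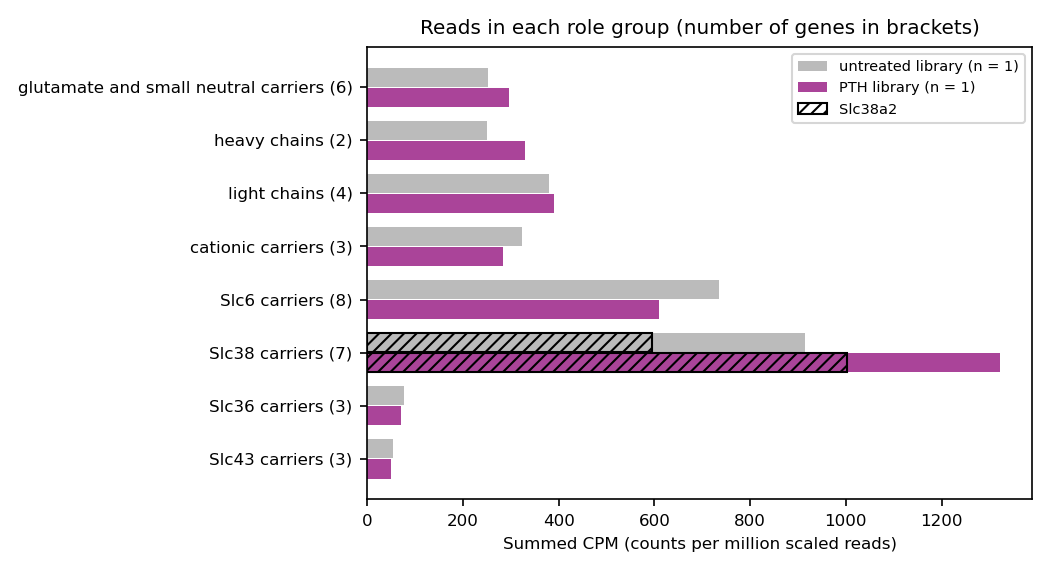
Summed CPM in each role group, with grey bars for the untreated and purple bars for the PTH library, the number of genes in brackets and the part of Slc38a2 hatched. The Slc38 group had 915 CPM untreated and 1323 after PTH, and the Slc6 group 735 and 610.

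By role, the Slc38 group had a ratio of 1.45 for its summed counts, the heavy chains 1.31 and the Slc1 group 1.17. The light chains stood at 1.03, the Slc36 group at 0.926, the Slc43 group at 0.907, the cationic carriers at 0.874 and the Slc6 group at 0.829. Each sum is led by 1 or 2 genes: Slc6a6 had 43466 of the 49372 untreated counts of the Slc6 group. Counting intervals lay wholly above 1 for 11 of the 30 genes and wholly below 1 for 8, beside 29.4% and 29.2% of all rows compared.

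**Figure D4:**
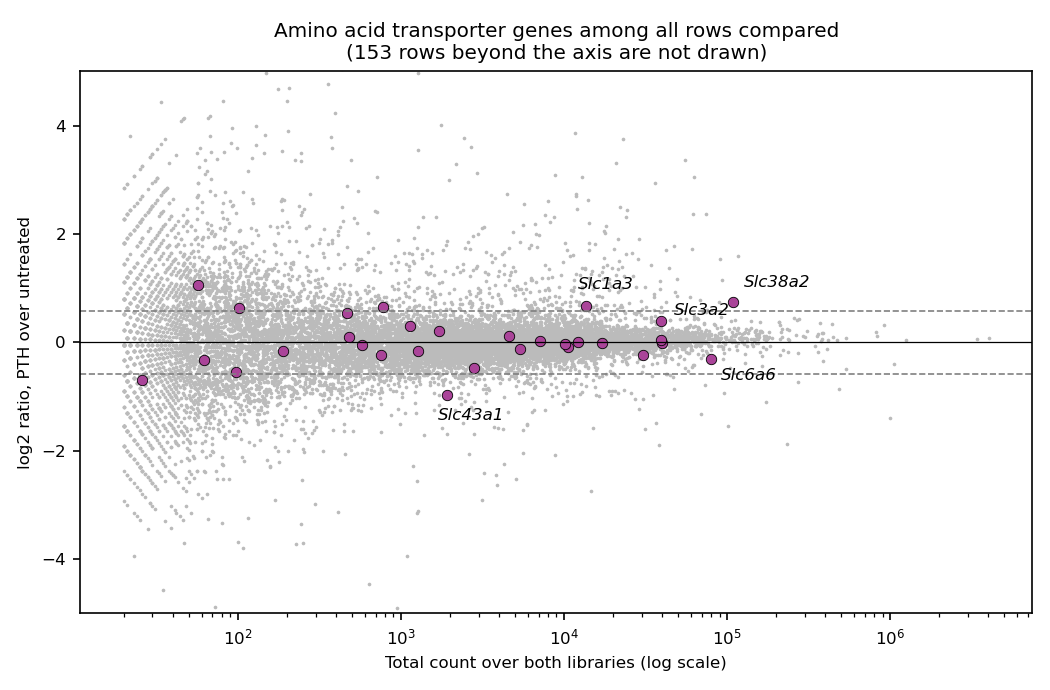
Log2 ratio, PTH over untreated, against the total count over both libraries (log axis) for the 16408 rows compared, in grey, with the 30 amino acid transporter genes as larger points and dashed lines at 1.5-fold; 153 rows beyond the axis are not drawn. Slc38a2 and Slc1a3 lie above the upper dashed line and Slc43a1 below the lower one. Slc6a7, Slc38a6 and Slc38a1 are also above and Slc6a2 is also below, with counting intervals that reach inside the lines. The other larger points lie between the lines.

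Other genes of amino acid supply were taken from 4 lists, which were chosen with earlier results of these data known. Of 23 compared genes among the targets of ATF4, a transcription factor of amino acid shortage, and the enzymes of amino acid synthesis, 19 were not past the rule, 3 had more reads and 1 had fewer, and the median log2 ratio was 0.03. As for the transporters, these counts stand beside 5.39% (more) and 3.54% (fewer) of all rows compared. Ddit4, an inhibitor of mTORC1, had 901 and 7897 counts, a ratio of 8.51 (7.94 to 9.13), and Cebpb, a bZIP factor, 5224 and 12117, a ratio of 2.25 (2.18 to 2.33). Exons of opposite-strand genes cover 20.7% of Cebpb. Atf4 itself had 24297 and 23750 counts, a ratio of 0.949 (0.932 to 0.966), and the serine synthesis gene Psat1 had 20090 and 22758, a ratio of 1.10 (1.08 to 1.12). Ppp1r15a was the third gene with more reads and Chac1, a glutathione-degrading enzyme gene, the one with fewer (1134 and 592 counts).

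Of 20 compared genes of amino acid breakdown and conversion, 16 were not past the rule, 3 had more reads and 1 had fewer, and the median was 0.08, again beside 5.39% and 3.54% of all rows. Got1, the cytosolic aspartate aminotransferase, had 3739 and 20786 counts, a ratio of 5.40 (5.21 to 5.59). Gclc, which makes the catalytic subunit for the first step of glutathione synthesis, had 4239 and 9950 counts, a ratio of 2.28 (2.20 to 2.36). Odc1, the ornithine decarboxylase of polyamine synthesis, had 17324 and 32226 counts, a ratio of 1.81 (1.77 to 1.84). Cbs, a transsulfuration enzyme gene, had 24 and 6 counts and fewer reads by the rule. It reached the minimum of 20 counts through the untreated library, where it is high, so its call is not read as a difference.

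None of 23 compared genes of mTORC1, its amino acid sensing and its other regulators was past the rule, with a median of 0.00. Of all rows compared, 5.39% had more reads and 3.54% fewer. The one of the 23 with most reads over both libraries, the activating GTPase gene Rheb, had 8508 and 6874 counts, a ratio of 0.785 (0.760 to 0.810). Among 12 other amino acid carriers, 1 had more reads and 0 fewer, with a median of 0.05, beside the same shares of all rows. That gene, Slc25a18, a mitochondrial glutamate carrier, had 2 and 21 counts, a ratio of 10.2 with an interval from 2.49 to 89.7. It reached the minimum of 20 counts only through the PTH library, where it is high, so its call is not read as a difference. The mitochondrial aspartate and glutamate carriers Slc25a12 and Slc25a13 stood at ratios of 0.951 (0.907 to 0.998) and 1.02 (0.973 to 1.06).

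**Figure D5:**
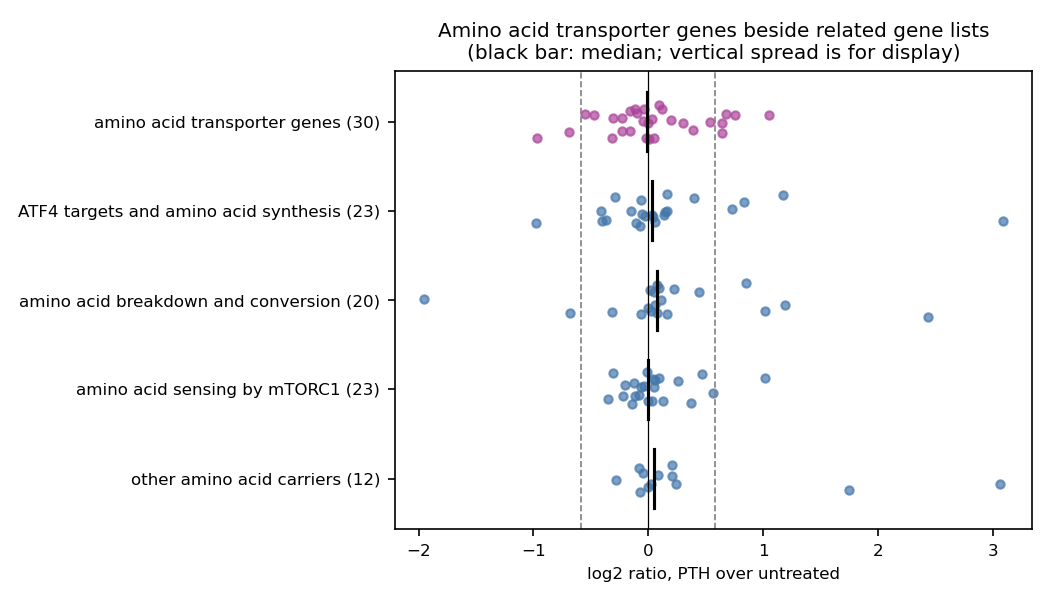
Log2 ratio, PTH over untreated, of each gene compared in the amino acid transporter set and in the 4 related lists, with the number of genes in brackets, the median as a black bar and 1.5-fold as dashed lines. The medians lie between -0.01 and 0.08, and single genes such as Ddit4 and Got1 stand far to the right of them.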

How the data were processed

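RNA from 1 untreated and 1 PTH-treated culture of MC3T3-E1 cells was sequenced. The authors deposited 1 table of whole-number counts for 55487 gene rows, not normalised. Reads were aligned with HISAT2 and the build is mm10, per the submitters' processing notes. The counting tool, annotation, strand setting and HISAT2 version were not stated in the sources used here. How reads were split among overlapping genes, copies and isoforms can therefore shift single counts.

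Scaling used TMM effective library sizes (edgeR 4.0.16, R 4.3.3) from the 16408 rows with 20 or more counts. With 1 library per group, edgeR's quasi-likelihood test has no residual degrees of freedom and could not be fitted. Ratios carry 95% exact conditional (Clopper-Pearson) intervals (Python 3.11.15, scipy 1.17.1). The intervals were checked on simulated counts with counting error alone, which is the error they assume. That check cannot show how the intervals hold with spread between cultures. The intervals cover counting error only, and PCR copies are not independent molecules. The depth of 3 counts is 0.0447 CPM untreated and 0.0434 after PTH. Log2 ratios add 0.5 count to each library. Exons, lengths and positions are from GENCODE M21 (GRCm38), which matched all 36 genes, and promoters from RefSeq (GRCm38.p6), which matched 24. The first 30 transcribed bases occur in a GENCODE transcript of the same gene for 23 of the 35 promoter windows, and on the reverse strand for 0.

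The genes, the 4 related lists and the rules were chosen with earlier results of these data known. Any gene that met the symbol rule could be named. From the lists, genes past the size rule and the 2 most read were named. The values of 1 such gene are not reported here. Alternatives were 3 scalings, count minimums, fold limits, widened intervals, and the omission of rows at 0 or with shared exons.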

Additional observations from a re-analysis of the deposited data

How the results depend on the processing

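With total counts, DESeq2 1.42.0 median-of-ratios factors or edgeR upper-quartile factors, the same 3 genes (Slc38a2, Slc1a3 and Slc43a1) were past the rule. Slc7a6 went below 1, to 0.982 with total counts and 0.989 with upper-quartile factors, and Slc36a4 to 0.997 with total counts. With a lower fold limit, 0.32 on the log2 scale, 4 of the genes had more reads (Slc3a2 and Slc38a6 added) and 2 fewer (Slc36a1 added), with 1495 and 1213 rows in the whole table. With a limit of 2 there were 0 and 0 genes, and 517 and 262 rows. With intervals widened for a coefficient of variation of 0.1 there were 0 and 0 genes, and for 0.2 again 0 and 0, with 474 and 267 rows at 0.2. The intervals at 0.1 were 1.28 to 2.22 for Slc38a2, 1.21 to 2.12 for Slc1a3 and 0.380 to 0.683 for Slc43a1. Without a count filter the whole table gave 1386 and 983 rows, because more rows were compared. A minimum of 10 counts or none also took Slc3a1 past the rule, but this rests on its listed 0 (0 and 13 counts) and is not read as a difference. The median log2 ratio of the genes ranged from -0.05 to 0.02 over the scalings, minimums and pseudocounts tried. Leaving out rows at 0 in 1 library, or rows sharing 20% or more of their exons, which were both chosen after the data were seen, kept the same 3 genes. No paired analysis was possible because each group has 1 library. Leaving out a library was not possible for the same reason, and the spread between cultures is unknown.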

Other observations

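Many rows of these families had no counts. Of the 61 rows that match the symbol pattern, 25 were listed at 0 in both libraries, among them Slc38a3 and Slc38a5 of the sodium-coupled neutral carriers, Slc7a8 and Slc7a10 of the light chains, Slc1a1 of the glutamate carriers and 11 rows of the Slc6 family. Of the 36 genes with counts, 5 were at 0 in 1 library, at 0 untreated for Slc1a7, Slc3a1, Slc6a4 and Slc6a15 and at 0 after PTH for Slc6a19, with 4 to 13 counts in the other.

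In several places genes of 1 family lie within 500 kb of each other on the genome. Whether other genes lie between them was not examined. Slc36a3 and Slc36a2 are 6.8 kb apart, at 0 and at 34 and 28 counts, and Slc36a1, 19.3 kb from Slc36a2, had 1611 and 1195. Slc6a18 and Slc6a19 are 1.7 kb apart, and Slc6a12 and Slc6a13 5.3 kb apart, with 4 counts at most in any of them. Slc7a7, at 57 and 40 counts, lies 304.4 kb from Slc7a8, which was at 0.

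The 14 genes with 1000 or more counts whose ratio lay between 0.8 and the inverse of 0.8 were 73.7% of the 19 genes at that depth, beside 83.8% of all rows at that depth. The 5 outside this range were Slc38a2, Slc1a3, Slc3a2, Slc36a1 and Slc43a1.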
